A study of Mus musculus with 6 samples.

Results

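The proteasome is the cell's main protease for ubiquitin-tagged proteins. Its barrel, the 20S core, is built of outer rings of α subunits and inner rings of β subunits, some of which cut proteins, and the 19S cap of a base with ATPases and a lid recognises, unfolds and feeds in the substrate. In macrophages and dendritic cells interferons can exchange the cutting β subunits for those of the immunoproteasome, which favours peptides for MHC class I. The genes described here were those whose symbol in the platform annotation starts with Psma, Psmb, Psmc, Psmd, Psme, Psmf or Psmg, plus Pomp. They numbered 51 of the 19938 genes that at least 1 probe set named alone. A gene read by more than 1 such probe set is given by that with the greatest mean level. By role they were 7 α and 7 β subunits of the constitutive 20S core, 5 immunoproteasome or tissue-specific 20S subunits, 9 subunits of the 19S base, 8 of the 19S lid, 3 assembly chaperones of the 19S base, 5 assembly chaperones of the 20S core, and 5 activators and inhibitors. The symbol rule also took 2 genes that are not subunits, Psmc3ip, a meiotic recombination factor, and Psme3ip1, an interaction partner of Psme3.

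Heme was added to cultures of bone marrow cells of Spic(igfp/igfp) mice, and all 6 samples carried that genotype. The sources used here do not say what the igfp allele carries. The marrow grew with 20 ng/ml GM-CSF, under which precursors become macrophages and dendritic cells, and 10% serum. After 6 days the cultures received 80 µM heme (the unit is typed as µm in the labels) or the vehicle, 0.15 M NaCl with 10% NH4OH. Adherent cells were taken after 6, 24 and 72 h, floating cells were discarded, and each of the 6 combinations of treatment and time was hybridised to 1 single-colour array. No group had a replicate, the labels leave unstated if each array had its own mouse or culture, and the number of arrays limits the precision. Levels below are log2 expression values as deposited, and differences are heme minus vehicle on the log2 scale. In adherent bulk RNA, fewer cells of a type and less RNA per cell cannot be told apart.

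The arrays had medians of 5.34 to 5.45 over 35556 probe sets, with the top value on the heme array of 6 h. At 6 h the median difference of all genes kept was -0.10, so differences near that value were no larger than those of the typical gene. A level filter required 5.37, the median over every probe set and array, on at least 1 array, and 11516 genes and 50 of the 51 proteasome genes passed. The thymus-specific subunit Psmb11 lay between 4.53 and 4.77 on the 6 arrays and was left out. Of 12 macrophage and dendritic cell markers, 10 passed the level filter, and the dendritic cell genes Flt3 and Zbtb46 did not reach it on any array. All measured markers of T and NK cells (4), B cells (3) and the erythroid lineage (2) stayed below it too, while 8 neutrophil and 5 stromal markers passed on at least 1 array. Heme oxygenase Hmox1, a check of the treatment, differed by 2.76, 2.74 and 2.27 at 6, 24 and 72 h, and Spic by 3.76, 4.40 and 3.48.

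Proteasome genes stood close to the typical gene at 6 h and were mostly higher with heme at 24 h and 72 h, both in the constitutive core and cap and in the base chaperones Psmd5 and Psmd10. At 6, 24 and 72 h the median difference of the 50 genes came to -0.13, 0.21 and 0.42, against -0.10, -0.02 and 0.03 for all genes kept, and the 6 h median of the 50 turned to 0.03 with each array centred on its median. At 72 h 18 of 50 were at least 1.5-fold higher with heme and 0 were at least 1.5-fold lower, against 4.21% and 2.67% of all genes kept. At 24 h 3 were at least 1.5-fold higher, namely Psma5, Psmb5 and Psmd5, and 0 lower, against 3.7% and 2.83% of all genes. At 6 h 1 was at least 1.5-fold higher (Psmd5) and 2 were lower (Psmg3 and Psmg4), against 3.36% and 6.89% of all genes. With median-centring 10 instead of 18 were at least 1.5-fold higher at 72 h, against 3.05% of all genes. Of the 50, 4 were at least 2-fold higher at 72 h, namely Psma5, Psmd1, Psmd7 and Psmd5, against 1.25% of all genes. Median-centring moved the median difference of all genes by 0.16 at 6 h and -0.08 at 72 h. A difference at a single time point rests on 1 array per treatment and has no replicate check.

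**Figure D1:**
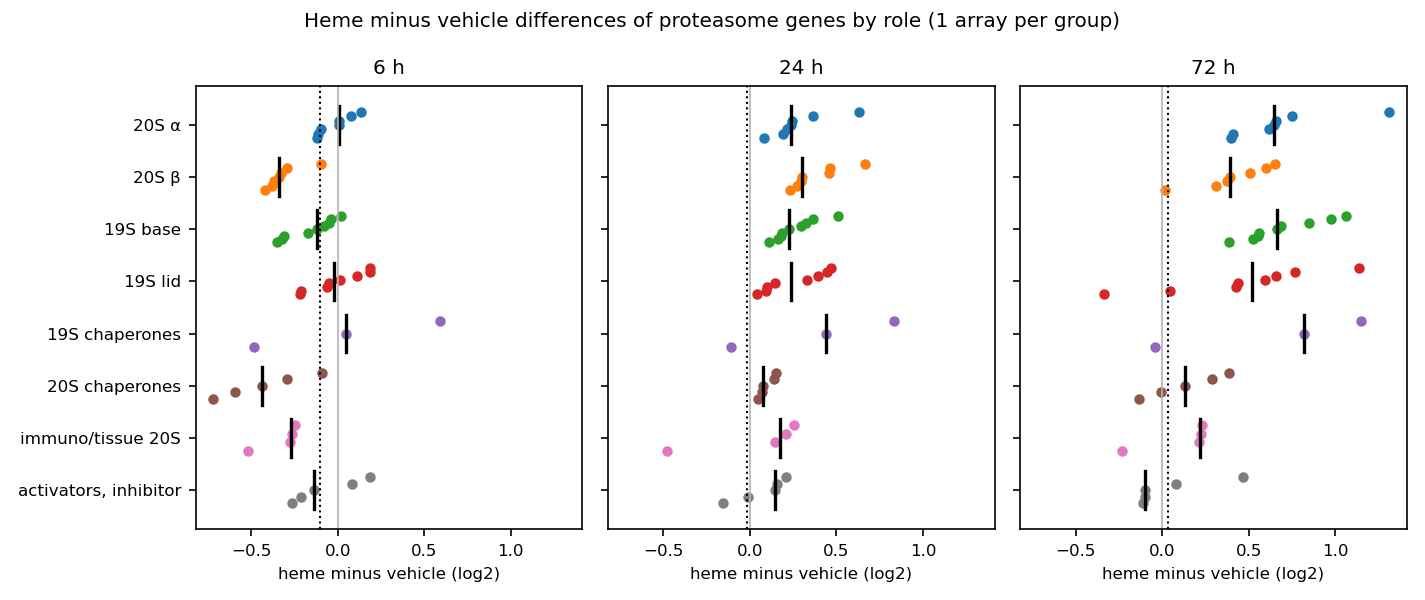
Heme minus vehicle difference (log2) of each kept proteasome gene but Psmc3ip and Psme3ip1, one point per gene, by role and time; black bars are medians of a role and the dotted line is the median of all genes kept. At 72 h the medians of the 20S α (0.65), 19S base (0.66) and 19S lid (0.52) subunits lie right of the medians of the 20S chaperones (0.13) and of the activators and inhibitor (-0.10), and that of the 3 19S chaperones (0.82) lies farthest right.

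All 31 constitutive 20S and 19S subunits of the symbol rule had a difference above 0 at 24 h, against 46.8% of all genes. At 72 h 30 of 31 had one, against 55.3%. The lid subunit Sem1, which the symbol rule leaves out, differed by 0.15, -0.08 and -0.07 at 6, 24 and 72 h. At 6 h 22 of the 31 lay below 0, against 63.5% of all genes. Of the 31, 16 were at least 1.5-fold higher at 72 h, compared with 2 of the other 19 genes, the base chaperones Psmd5 and Psmd10. Their median difference was -0.10, 0.27 and 0.59 at 6, 24 and 72 h, and that of the other 19 was -0.26, 0.14 and 0.08. No test was made of the difference between the groups, since the members share arrays and are not replicates.

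Promoters are printed for 4 genes that mark these patterns: Psmd5, which passed the test over the 3 time points, Psma5, which had the largest difference at 72 h (1.31), and Psmb5 and Psmb8, which hold the same place in the constitutive core and in the immunoproteasome. Each runs from 250 bases before to 50 bases after the gene's start on GRCm38.p6, as RefSeq gives it, and is written 5′ to 3′ on the strand of the gene. Capitals mark the match to the motifs described after the sequences.
Psmd5 (chr2:34870913-34871212, minus strand): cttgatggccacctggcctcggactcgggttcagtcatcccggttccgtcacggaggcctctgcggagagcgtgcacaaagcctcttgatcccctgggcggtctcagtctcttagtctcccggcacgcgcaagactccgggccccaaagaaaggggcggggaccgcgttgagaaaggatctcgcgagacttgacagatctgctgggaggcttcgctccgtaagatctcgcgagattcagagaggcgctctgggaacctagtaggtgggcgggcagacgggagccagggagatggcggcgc
Psma5 (chr3:108256676-108256975, plus strand): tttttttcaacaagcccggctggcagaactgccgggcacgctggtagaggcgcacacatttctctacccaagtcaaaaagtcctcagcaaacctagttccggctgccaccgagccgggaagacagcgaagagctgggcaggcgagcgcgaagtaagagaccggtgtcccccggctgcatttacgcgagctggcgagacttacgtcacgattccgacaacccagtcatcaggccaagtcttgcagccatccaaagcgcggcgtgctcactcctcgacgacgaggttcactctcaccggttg
Psmb5 (chr14:54617946-54618245, minus strand): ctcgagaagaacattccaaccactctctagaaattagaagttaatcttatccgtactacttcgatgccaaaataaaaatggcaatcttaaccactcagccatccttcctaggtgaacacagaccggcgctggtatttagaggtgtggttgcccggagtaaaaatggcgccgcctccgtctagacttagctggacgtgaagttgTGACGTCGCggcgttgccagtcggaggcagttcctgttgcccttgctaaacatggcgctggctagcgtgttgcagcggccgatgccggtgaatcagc
Psmb8 (chr17:34197945-34198244, plus strand): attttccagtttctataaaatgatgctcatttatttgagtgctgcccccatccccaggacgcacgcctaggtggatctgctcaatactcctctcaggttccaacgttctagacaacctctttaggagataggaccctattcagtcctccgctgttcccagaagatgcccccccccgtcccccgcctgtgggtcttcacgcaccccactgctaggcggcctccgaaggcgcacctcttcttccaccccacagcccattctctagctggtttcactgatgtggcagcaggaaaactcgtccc

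The table of promoters held 43 of the 51 genes. Both strands were searched for TGACNNNGC, the core of the antioxidant response element bound by NRF2 and NRF1 (Nfe2l1), CCAAT, the box bound by NF-Y, and the core of the interferon-stimulated response element. Psmb5 held TGACGTCGC from base 204 to 212 of the window, the single match in the 4 printed promoters. No motif matched in the windows of Psmd5, Psma5 and Psmb8. The antioxidant core was found in 6 of the 43 genes, which is 14% and the same as in the 27025 genes of the table (14%), and the CCAAT box in 16 (37.2%, against 41.1%). Of the 17 genes with a promoter that were at least 1.5-fold higher at 72 h, 3 held the antioxidant core and 8 the CCAAT box. The CCAAT box was in 5 of 7 α subunits and 1 of the 4 constitutive β subunits with a promoter. The interferon motif was found in 5 genes (11.6%, against 3.99%). None of these was at least 1.5-fold higher at 72 h, against 17 of the 43, with Psmd4 (0.55) just short of it. A link between a motif and the differences was not tested. These matches describe letters in a short window and are not binding sites.

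The α subunits form the outer rings and the gate of the core. Their 6 h values differed little between treatments, and all 7 were higher with heme at 24 h and 72 h. Psma5 had levels of 10.14, 10.79 and 11.05 with heme at 6, 24 and 72 h, against 10.13, 10.16 and 9.74 with vehicle. The treatments were level at 6 h and then parted in opposite directions. Psma3 had 10.46, 10.70 and 10.89 with heme and 10.33, 10.46 and 10.14 with vehicle. Psma7 had 10.86, 11.21 and 11.34 with heme, against 10.97, 10.85 and 10.68 with vehicle. For Psma3 the lowest heme level, 10.465, lay just above the highest vehicle level, 10.464, and for Psma7 the 6 h heme level lay within the vehicle range. At 72 h the 7 differences ran from 0.40 (Psma4) to 1.31 (Psma5) with a median of 0.65, and 5 of 7 were at least 1.5-fold higher, all but Psma2 and Psma4. The differences of all 7 stood in the order 6 h below 24 h below 72 h, as in 28.2% of all genes.

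Psma3 and Psma5 are each read by several probe sets, and these moved alike. The second Psma5 probe set differed by 0.07, 0.70 and 1.15 at 6, 24 and 72 h. The other probe sets of Psma3 differed by 0.07 and 0.24 at 6 h and by 0.72 each at 72 h. The reference gene table lists a pseudogene copy, Psma5-ps, and signal of the gene and of a near-identical copy cannot be told apart on these arrays.

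The constitutive β subunits include the cutting subunits Psmb5, Psmb6 and Psmb7. All 7 were lower with heme at 6 h and higher at 24 h and 72 h. Of all genes, 63.5% were lower at 6 h, and 46.8% and 55.3% were higher at 24 h and 72 h. The median of the β subunits was -0.34, 0.30 and 0.39. Psmb5, which carries the chymotrypsin-like activity, had 10.72, 11.23 and 11.08 with heme, against 11.01, 10.57 and 10.43 with vehicle. Psmb4, a structural subunit, had 10.45, 11.01 and 10.93 with heme and 10.79, 10.74 and 10.33 with vehicle. Psmb7, with the trypsin-like activity, had 9.15, 9.72 and 9.52 with heme and 9.57, 9.27 and 9.01 with vehicle. In these 3 genes the 6 h heme level lay within the vehicle range and both later heme levels exceeded their own vehicle levels. Psmb6, with the caspase-like activity, was the member of this ring that differed least at 72 h (0.02). At 72 h 2 of 7, Psmb5 (0.65) and Psmb4 (0.60), were at least 1.5-fold higher. The 2 probe sets of Psmb3 disagreed in size at 6 h (-0.33 for the one used and -0.93 for the other) and had 0.39 and 0.57 at 72 h.

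The 19S base holds 6 ATPases that unfold the substrate and large scaffold subunits. All 9 base genes were higher with heme at 24 h and 72 h, and their median was -0.12, 0.23 and 0.66. Psmd1, the largest scaffold subunit, had 9.82, 9.70 and 10.25 with heme, against 9.81, 9.19 and 9.19 with vehicle. Psmc1, an ATPase, had 9.06, 9.37 and 9.54 with heme and 9.41, 9.01 and 8.56 with vehicle. Psmc6, another ATPase, had 8.56, 8.87 and 9.21 with heme and 8.60, 8.69 and 8.36 with vehicle. Psmd1 and Psmc6 were level between treatments at 6 h, whereas Psmc1 was lower with heme there and 0.97 higher at 72 h, and for all 3 the levels of the treatments overlapped. At 72 h 5 of 9 were at least 1.5-fold higher, and the smallest difference was 0.39 (Psmc3). All 9 had their differences in the order 6 h below 24 h below 72 h. The second probe sets of Psmc1 and Psmd2 differed by 0.86 and 0.61 at 72 h.

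The 19S lid removes ubiquitin chains before the substrate enters. Psmd7, the partner of the deubiquitinase, had 8.66, 9.06 and 9.33 with heme, against 8.72, 8.62 and 8.19 with vehicle. Psmd11, which clamps lid, base and core together, had 9.27, 9.27 and 9.63 with heme and 9.16, 8.94 and 8.86 with vehicle. Psmd14, the deubiquitinase itself, had 9.37, 9.05 and 9.44 with heme and 9.18, 8.95 and 8.78 with vehicle. The heme levels of Psmd11 all exceeded the vehicle levels, and those of Psmd7 and Psmd14 overlapped with them. At 72 h the lid ran from -0.34 to 1.14, a wider range than the other core and cap groups. There 4 of 8 were at least 1.5-fold higher, whereas Psmd13 differed by 0.04 and Psmd8 by -0.34. The lid median was -0.02, 0.24 and 0.52, and the sign at 6 h was positive with each of the 3 other scalings tried.

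**Figure D2:**
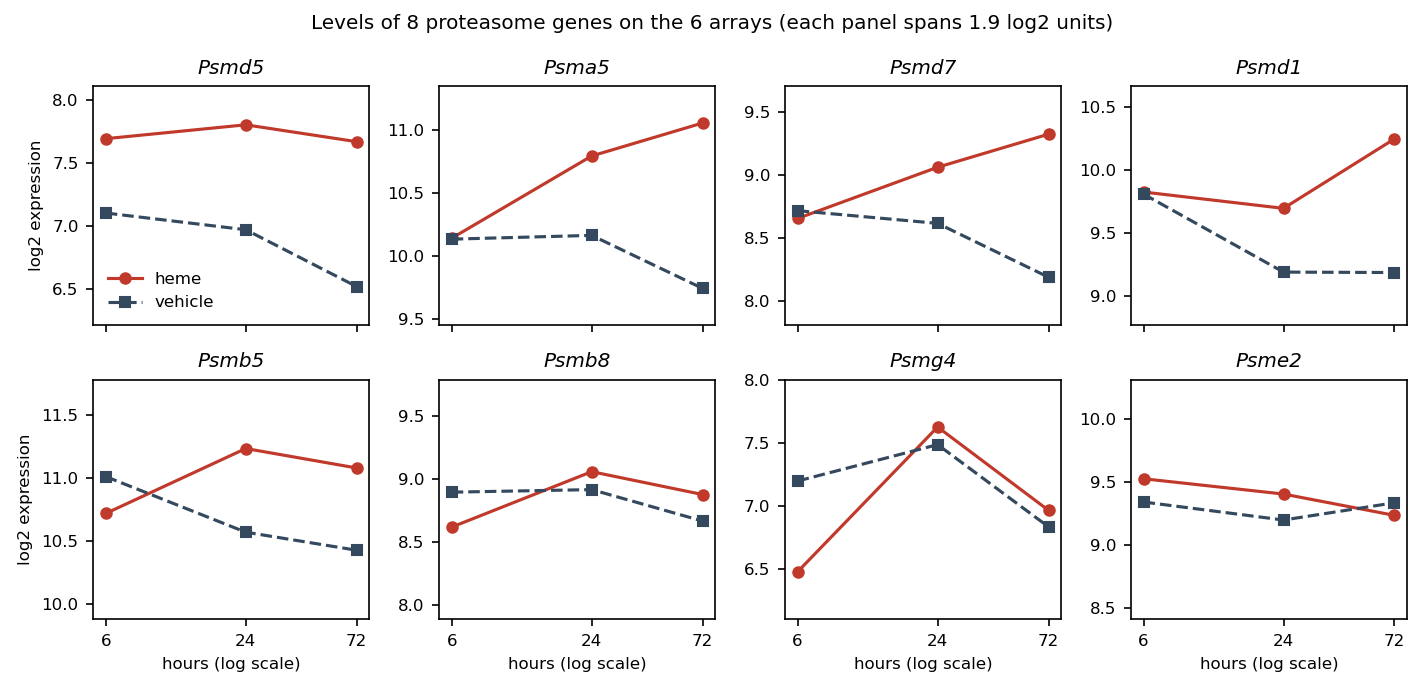
Levels (log2 expression) of 8 proteasome genes at 6, 24 and 72 h (log time axis), with heme (solid red) and vehicle (dashed grey), 1 array per point; the panels have different ranges of the same height. Psmd5 lies higher with heme at each time. Psma5, Psmd7 and Psmd1 part after 6 h, and Psmb5 lies lower with heme at 6 h and higher at both later times. Psmb8, Psmg4 and Psme2 run close together at 72 h.

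Psmd5 was the proteasome gene that passed the test over the 3 time points. Psmd5, Psmd9 and Psmd10 encode chaperones that hold ATPases of the base during assembly and leave the finished particle. Psmd5 had 7.69, 7.80 and 7.67 with heme, against 7.10, 6.97 and 6.52 with vehicle. Every heme level exceeded every vehicle level, the heme levels stood close together, and the vehicle level was lowest at 72 h. The differences of Psmd5 were 0.59, 0.83 and 1.15 at 6, 24 and 72 h, which correspond to 1.51-fold, 1.78-fold and 2.22-fold. Psmd5 was higher with heme than with vehicle by a mean of 0.86 ± 0.28 (SD, n = 3 time points, limma adjusted p = 0.0276). Leaving out the 24 h or the 72 h pair of arrays ended that call (limma, adjusted p = 0.379 and 0.0835), as did leaving time out of the model (limma, adjusted p = 0.177). Psmd10, also known as the oncoprotein gankyrin, had 8.40, 9.06 and 8.83 with heme and 8.36, 8.62 and 8.01 with vehicle. Psmd9 had 7.43, 7.81 and 7.55 with heme, against 7.92, 7.92 and 7.60 with vehicle. Psmd10 differed by 0.82 at 72 h, whereas Psmd9 was lower with heme at every time, with differences of -0.49, -0.11 and -0.04. The levels of the treatments overlapped for both.

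The test across the whole set was limma with treatment and time as terms, Benjamini-Hochberg over 11516 genes. At an adjusted p below 0.05, 1 of 50 genes was higher and 0 lower with heme, against 1.13% and 0.59% of all genes. Over all genes that was 130 up and 68 down, and 115 up and 36 down after cyclic loess. These p-values set the mean difference against its spread between time points, which limma draws toward the spread of all genes. The prior degrees of freedom (7.17) exceeded the 2 residual ones, so a gene's own spread carried the smaller weight. At an unadjusted p below 0.05 in limma 8 were higher with heme, against 4.97% of all genes, namely Psma3, Psma5, Psmd1, Psmd3, Psmd5, Psmd7, Psmd10 and Psmd11. The mean differences of the 7 other than Psmd5 ran from 0.36 ± 0.15 (Psmd3) to 0.65 ± 0.65 (Psma5; SD, n = 3 time points), with adjusted p from 0.262 to 0.426 in limma. All 3 heme arrays exceeded all 3 vehicle arrays in 4 of the 50 genes (Psma3, Psma6, Psmd5 and Psmd11), against 5.4% of all genes, and lay all below them in 0, against 5.85%. Without the 6 h pair 7 genes were higher with heme: Psmd5, Psma5, Psmd1, Psmd7, Psmb5, Psmc1 and Psmd10 (limma, adjusted p from 1.02e-04 to 0.0289). Over all genes 322 were up and 199 down. That fit had 1 residual degree of freedom and a prior of 46.9, so its p-values reflect little of the spread of a single gene. Without the 24 h pair 0 of 50 passed, and over all genes 11 were up and 1 down. Without the 72 h pair 0 of 50 passed too, and over all genes 134 were up and 67 down.

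The 5 assembly chaperones of the 20S core had a median difference of 0.13 at 72 h, with Pomp the highest of them (0.39). Psmg1 and Psmg2 form one pair and Psmg3 and Psmg4 another, and both pairs build the α ring, while Pomp helps place the β subunits. Psmg4 had 6.48, 7.63 and 6.96 with heme, against 7.20, 7.49 and 6.83 with vehicle. Psmg3 had 7.44, 7.90 and 7.47 with heme and 8.03, 7.85 and 7.61 with vehicle. Both were at least 1.5-fold lower with heme at 6 h (-0.72 and -0.59), as were 6.89% of all genes, and close to vehicle later. The count of proteasome genes past that fold, 2 here, was 0 with median-centring and 3 with the mean of probe sets. It was 1 after a second quantile normalization, cyclic loess or a linear offset of 16. Psmg1 had 7.40, 7.72 and 7.74 with heme and 7.84, 7.64 and 7.45 with vehicle. Psmg2 had 6.96, 7.09 and 6.93 with heme and 7.26, 6.94 and 6.94 with vehicle. Pomp had 10.11, 10.30 and 10.26 with heme, against 10.21, 10.23 and 9.87 with vehicle. In each of the 5 genes the levels of the treatments overlapped. All 5 were lower with heme at 6 h, as were 63.5% of all genes. At 6 h and 24 h the median was -0.44 and 0.08, and 0 of 5 passed the test (limma, lowest adjusted p = 0.739).

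The immunoproteasome subunits replace Psmb6, Psmb7 and Psmb5 in the core. Psmb9, in the place of Psmb6, had 9.79, 10.56 and 10.20 with heme, against 10.05, 10.31 and 9.97 with vehicle. Psmb10, in the place of Psmb7, had 8.98, 9.57 and 9.12 with heme and 9.22, 9.36 and 9.36 with vehicle. Psmb8, in the place of Psmb5, had 8.62, 9.06 and 8.88 with heme and 8.90, 8.92 and 8.67 with vehicle. The levels of the treatments overlapped for all 3, and their median was -0.26, 0.21 and 0.21. Set against its constitutive counterpart, as its difference minus that of the counterpart, Psmb10 stood at -0.74 at 72 h, Psmb8 at -0.44 and Psmb9 at 0.21. At 6 h these gaps were 0.17 for Psmb10, 0.02 for Psmb8 and -0.17 for Psmb9. No test of these gaps was made. Psma8, the α subunit of the testis, had 5.66, 5.88 and 6.03 with heme, against 6.17, 6.36 and 5.80 with vehicle, levels close to the level filter.

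The activators open the core in place of the 19S cap, and Psmf1 binds the core as an inhibitor in vitro. Psme1, which with Psme2 forms an activator induced by interferon, had 9.64, 9.83 and 9.67 with heme, against 9.90, 9.68 and 9.77 with vehicle. Psme2 had 9.53, 9.41 and 9.24 with heme and 9.34, 9.20 and 9.34 with vehicle. The difference farthest from 0 in this pair was -0.26, for Psme1 at 6 h, and the levels of the treatments overlapped. Psme3, the nuclear relative of these activators, had 8.93, 8.84 and 8.95 with heme and 9.07, 8.99 and 8.87 with vehicle. Psme4, a large single-chain activator, had 8.45, 8.24 and 8.42 with heme and 8.37, 8.25 and 7.96 with vehicle. Psmf1 had 7.39, 7.59 and 7.39 with heme and 7.60, 7.45 and 7.50 with vehicle. The levels of the treatments overlapped for these 3 as well. Of the 5, Psme4 had the largest difference at 72 h (0.47), and the group median was -0.14, 0.14 and -0.10. The 6 h median turned to 0.03 with median-centring. Psmc3ip and Psme3ip1, which are not subunits, differed by -0.14 and 0.05 at 72 h.

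**Figure D3:**
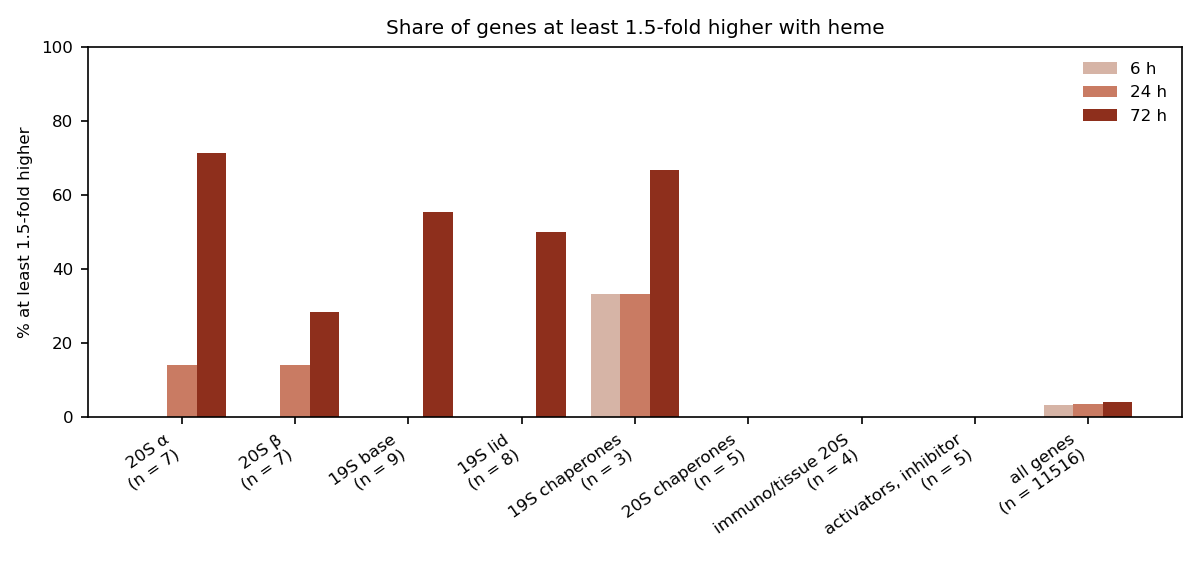
Percentage of kept genes at least 1.5-fold higher with heme at 6, 24 and 72 h, by proteasome role and for all genes kept, with the number of genes in brackets. Bars at 72 h stand for 5 of 7 α subunits, 2 of 7 β subunits, 5 of 9 base, 4 of 8 lid and 2 of 3 base chaperone genes, and the other 3 roles have none.

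Between 6 h and 72 h the median level of these genes went up with heme and down with vehicle. With heme 41 of 50 proteasome genes were higher at 72 h than at 6 h, against 56% of all genes, and with vehicle 48 of 50 were lower, against 57.7% of all genes. Both held for 39 of 50, against 27.4% of all genes. For the 31 constitutive core and cap subunits the median change between 6 h and 72 h was 0.35 with heme and -0.39 with vehicle, and all 31 were lower at 72 h with vehicle. All genes kept had medians of 0.05 with heme and -0.06 with vehicle. Of the 50, Psmc1 was farthest below its 6 h level with vehicle (-0.85) and Psma5 farthest above it with heme (0.91), whereas Psmd8 was lower at 72 h than at 6 h with heme (-0.63) as well as with vehicle (-0.51). Averaged over heme and vehicle, 0 of 50 passed a test of 72 h minus 6 h in either direction (limma, lowest adjusted p = 0.164), against 3.06% of all genes higher and 3.53% lower. At an unadjusted p below 0.05 in limma there were 3 of 50, against 18.5% of all genes in either direction. Opposite changes with heme and vehicle, as in 39 of 50, cancel in this average. It therefore cannot show how a gene changed within a treatment.

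**Figure D4:**
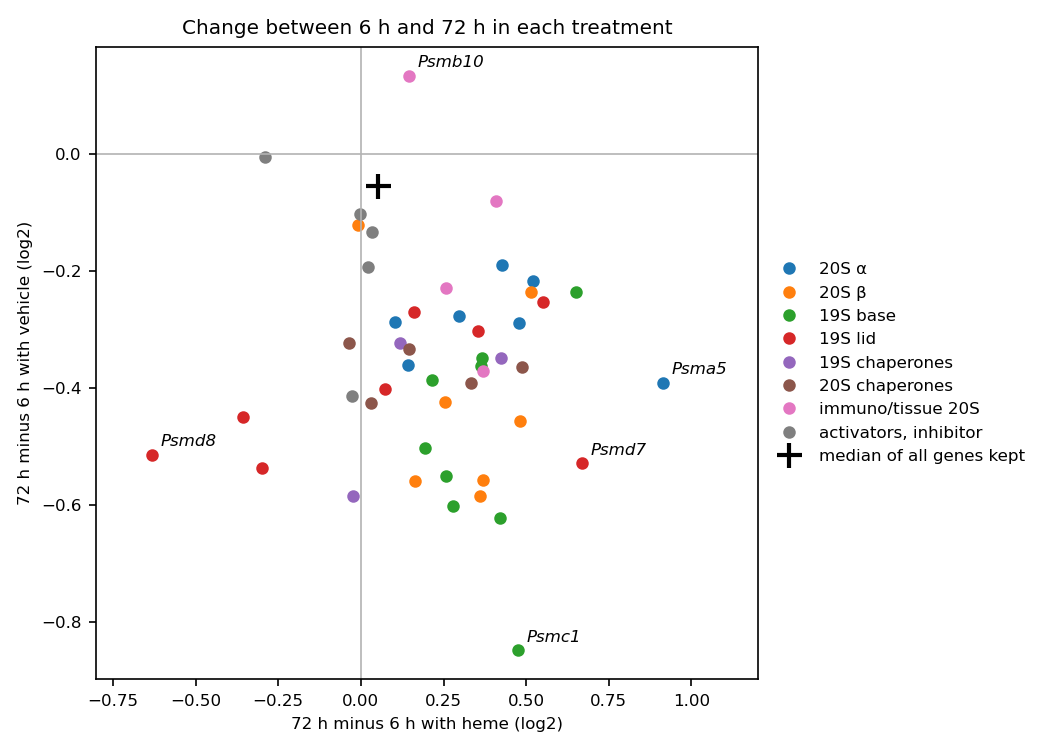
Change between 6 h and 72 h (72 h minus 6 h, log2) with heme on the horizontal axis and with vehicle on the vertical axis, one point per proteasome gene, Psmc3ip and Psme3ip1 left out, coloured by role; the cross marks the median of all genes kept. Most genes lie lower right, with Psma5 at 0.91 and -0.39 and Psmc1 at 0.48 and -0.85, and Psmd8 lies lower left.

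A trend of the heme minus vehicle difference with the logarithm of time was fitted as a further term, which left 1 residual degree of freedom. The median slope was 0.20 per doubling of the hours for the 31 constitutive subunits, 0.17 for the 50 genes and 0.04 for all genes. At an adjusted p below 0.05 in limma 0 of 50 proteasome genes passed, as did 0% of all genes. At an unadjusted p below 0.05 in limma 20 of the 50 had a positive slope and 0 a negative one, against 8.15% of all genes positive. Psmc1 had the lowest adjusted p of the 50 (slope 0.37; limma, adjusted p = 0.269), followed by Psma5 (slope 0.36; limma, adjusted p = 0.275). After a second quantile normalization or with the time points taken in order, Psma5 and Psmc1 passed (limma, adjusted p from 0.0292 to 0.049). Over all genes 138 were up and 84 down after the second quantile normalization, and 137 up and 70 down with the time points in order.

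Partners of the proteasome had a median difference near 0 at each time. Of 29 partners, with the lid subunit Sem1 among them, 19 were read by a probe set naming only that gene. At an adjusted p below 0.05 in limma 0 were higher and 0 lower with heme, against 1.13% and 0.59% of all genes. At an unadjusted p below 0.05 in limma there were 3 in either direction, against 1223 of the 11516 genes kept. The median difference of the partners was 0.01, -0.08 and 0.04 at 6, 24 and 72 h. At 72 h 4 of 19 were at least 1.5-fold higher, against 4.21% of all genes. These were the scaffold Ecpas (0.65), the deubiquitinase Uchl5 (0.65), the deglycosylase Ngly1 (0.67), which acts on NRF1, and Vcp (0.59), which extracts ubiquitinated proteins. Ecpas had a mean difference of 0.48 ± 0.15 (SD, n = 3 time points; limma, adjusted p = 0.169), and Zfand2a, a zinc finger protein induced by arsenite, had -0.40 ± 0.20 (limma, adjusted p = 0.286). Txnl1, a thioredoxin of the 19S cap, had 0.32 ± 0.20 (limma, adjusted p = 0.468). Nfe2l1, which encodes NRF1, a transcription factor for proteasome genes, differed by 0.09, 0.12 and 0.01, and Nfe2l2, which encodes NRF2, by 0.46, 0.32 and -0.41.

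Class I antigen processing genes and interferon-induced genes were set beside the immunoproteasome. Of 14 antigen processing genes 11 were measured. In limma 0 of them passed, against 1.13% of all genes higher and 0.59% lower. An unadjusted p below 0.05 in limma was reached by 0, against 1223 of the 11516 genes kept. The median of the 11 was 0.22, -0.17 and -0.03. The largest mean differences there were those of Nlrc5 (0.24), Tap2 (0.16), Tapbp (0.13) and Calr (-0.12). Of the listed interferon-induced genes, Ifit3 and Oasl2 reached the level filter on all 6 arrays. Ifit3 differed by 1.35, -0.56 and -0.56 at 6, 24 and 72 h and Oasl2 by 1.61, 0.19 and -0.23, while Psmb8, Psmb9 and Psmb10 differed by -0.28, -0.26 and -0.25 at 6 h. The other 6 measured genes of that list were below the filter on at least 1 array, and Ifit1, Ifit2 and Rsad2 passed it through the 6 h heme array alone, so no count or median over the list is given.

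Markers of macrophages and dendritic cells and of other cell types moved in some of the same comparisons. The 10 macrophage and dendritic cell markers kept had medians of 0.13, 0.03 and 0.07 at 6, 24 and 72 h. At 72 h 1 was at least 1.5-fold higher (Adgre1, 0.59) and 0 lower, against 4.21% and 2.67% of all genes. At 24 h 1 was higher (Itgam, 0.66) and 1 lower (Fcgr1, -0.81), against 3.7% and 2.83%. Of 5 stromal markers, Col3a1 reached the level filter through heme arrays alone, so no count or median over the list is given. Sparc differed by -0.71, 0.07 and 1.14 at 6, 24 and 72 h and Col1a2 by -0.27, 0.05 and 0.81. Dcn differed by -0.93, -0.49 and 0.39 and Col1a1 by -0.15, 0.34 and 0.16. In all of these but Col1a1 the order was 6 h below 24 h below 72 h, as in 28.2% of all genes. The summed level of the 5 on the linear scale ran from 399.4 to 1589 with heme and from 512.3 to 931 with vehicle. Of the 8 neutrophil markers, Camp, S100a8 and S100a9 reached the level filter on all 6 arrays. Camp differed by 0.35, 1.94 and 0.03, S100a8 by 0.28, 1.97 and 0.71, and S100a9 by 0.05, 2.13 and 1.05. The others were below the filter on at least 1 array, so no median is given. Of these, Ly6g, Ngp, Ltf and Mpo were lower with heme at 72 h. The summed level of all 8 ran from 1610 to 11570 with heme and from 1043 to 10000 with vehicle. The part of any of these marker lists in the proteasome differences was not tested.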

How the data were processed

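The values the authors deposited are log2 expression, from ArrayStar's RMA and quantile normalization per the series' design text (RMA also per the submitters' processing notes). Software versions and a build are not given in the sources used. Scanner values were not analysed here. RMA combines several probes into 1 value, which can compress differences of dim genes. The platform annotation gave 1 gene for 21789 of the 35556 probe sets, several for 1621 and did not list 12146. Gene IDs of 21698 matched the GRCm38.p6 gene table, which changed 0 symbols. No depth exists for arrays.

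From these values, differences were heme minus vehicle. limma 3.58.1 in R 4.3.3 (lmFit, eBayes, two-sided, Benjamini-Hochberg over 11516 genes) used all 6 arrays and terms for treatment and time (2 residual degrees of freedom, prior 7.17), and was run again with a slope in log2 hours (1 and 6.40). At a single time point there was no test. Deviations from the treatment means correlated between heme and vehicle arrays taken at 1 time (0.562, 0.215 and 0.531 at 6, 24 and 72 h), which rests on the times in the labels. Members, roles, lists and tests were chosen with earlier results of these data known. Levels on all arrays are printed for assembly factors, activators, the inhibitor, immunoproteasome and tissue-specific subunits and the 3 of each core and cap group with the largest difference at any time; of partner lists, up to 4 with the largest mean difference. Other partners and members were named after their values were seen, to spell out small counts.

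Alternatives covered scaling (cyclic loess, median-centring or quantile normalization repeated), the mean of probe sets, other level filters, a linear offset of 16, a 2-fold threshold, a variance trend, robust eBayes, no time term, other time scales and leaving out each time point. On simulated data with 11516 genes, the test over the 3 time points recovered 6.27%, 88.7% and 99.4% of genes changed by 0.5, 1 and 2 (log2), and 0 genes were called in 5 runs without change. The slope test recovered 48.7%, 99.7% and 100% of slopes of 0.5, 1 and 2 per doubling. Smaller slopes were not simulated, and the largest slope of a proteasome gene was 0.37 (Psmc1). The recovery of slopes of the size seen is therefore not known. Promoters were searched in Python 3.11.15. One further promoter motif is not reported here.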

Additional observations from a re-analysis of the deposited data

Results flagged for a closer look

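Some role groups had median differences of opposite sign at 6 h and 72 h, more than 0.1 from 0 at both; with 1 array per treatment and time the difference between the times was not tested for groups. The β subunits had -0.34 at 6 h and 0.39 at 72 h, with the 6 h value at -0.17 after median-centring. The 19S base had -0.12 and 0.66, with the 6 h value at 0.04 after median-centring. The 20S chaperones had -0.44 and 0.13, with the 72 h value between 0.05 and 0.08 under the 3 other scalings, so the 72 h side lay within 0.1 of 0 in all 3. Psmb8, Psmb9 and Psmb10 together had -0.26 and 0.21, with the 6 h value at -0.098 after median-centring. For single genes the slope with time was tested, and 0 of 50 passed in limma, with 20 at an unadjusted p below 0.05.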

How the results depend on the processing

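Psmd5 passed in limma under 10 of 13 alternatives, with a mean difference of 0.78 to 0.99 and adjusted p from 1.02e-04 to 0.0275. The call ended without the 24 h pair (0.87, limma adjusted p = 0.379), without the 72 h pair (0.71, 0.0835) and with no time term (0.86, 0.177), which is also the fit without pairing by time. The cause was not tested. Leaving out 1 pair gave 0 to 7 proteasome genes up, with 11 to 322 genes up and 1 to 199 down over all genes, the highest without the 6 h pair and the lowest without the 24 h pair. With no time term 0 proteasome genes were higher with heme, and over all genes 17 were up and 1 down. All genes down numbered 45 after a second quantile normalization and 36 after cyclic loess, against 68.
For the slope with time, 0 genes passed in the reported fit. A second quantile normalization gave 2 proteasome genes (138 genes up and 84 down over all genes) and time points in order gave 2 (137 and 70). Cyclic loess gave 45 and 43 and untransformed hours 43 and 25 over all genes, and 1 or 2 genes passed under the mean of probe sets, both other level filters, the offset, the variance trend and robust eBayes.
Proteasome genes at least 1.5-fold lower at 6 h numbered 1 after a second quantile normalization, cyclic loess or the offset and 0 after median-centring. With the mean of probe sets they numbered 3. Those at least 1.5-fold higher at 6 h numbered 0 with the offset. At 72 h 10 were higher after median-centring. With a 2-fold threshold 0 were higher or lower at 6 h, 0 higher at 24 h and 4 higher at 72 h. The 6 h medians of the 19S base, the lid and the activators turned to 0.04, 0.14 and 0.03 with median-centring, and no role median changed sign at 24 h or 72 h under the 3 other scalings.
The number of arrays limits the precision: with 1 array per treatment and time, a difference at a single time cannot be set against replicate spread, and signal near background limits Psma8 and Psmc3ip.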

Other observations

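One probe set named both Psme2 and its copy Psme2b and was left out by the rule. It had 9.53, 9.10 and 9.13 with heme at 6, 24 and 72 h, against 9.21, 9.46 and 9.53 with vehicle. Its differences were 0.33, -0.37 and -0.40, where the probe set of Psme2 alone had 0.18, 0.21 and -0.10. The pair of probe sets therefore had opposite signs at 24 h, and which transcripts each reads was not tested.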
